A study of Homo sapiens with 3 samples.

Results

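The genes described are FGA, FGB and FGG, which encode the Aα, Bβ and γ chains of fibrinogen, and FGL1, which encodes fibrinogen-like protein 1. They were taken by symbol, 4 genes of the 21572 in the deposited table, and were selected on their FPKM levels, for a large loss in the sh#7 knockdown line only. The levels and differences in all 3 libraries are therefore given as a description with no test. FGA, FGB and FGG bore the description out. FGL1 did not: it stayed near its control level in both lines.

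Hep-G2 is a long-established human hepatoma line. A control line carried the shRNA SHC002, described in the series design as a scramble, and the knockdown lines carried different shRNAs against FTO, an RNA demethylase of N6-methyladenosine. They are called sh#2 (TRCN0000255402) and sh#7 (TRCN0000246247) here. All cells were at passage 21 in DMEM with serum and had no other stated treatment. The design text gives sh#7 as the more efficient knockdown. Each line gave 1 library, no source used here says whether a line is 1 clone or a pool, and an effect of FTO cannot be told apart from an effect of a line or of a hairpin.

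Fibrinogen is the soluble plasma protein that thrombin turns into fibrin. It is made mainly by hepatocytes, which assemble paired Aα, Bβ and γ chains in the endoplasmic reticulum and secrete the finished hexamer. The chain genes lie side by side, are transcribed together in liver, and are induced in the acute phase by interleukin 6 through STAT3, with C/EBP factors at their promoters. In Hep-G2 cells the Bβ chain has been described as the limiting one. FGL1 is a secreted liver protein with a fibrinogen-like domain that takes no part in the clot and binds the immune receptor LAG3.

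The promoters of the chain genes are shown because the chain genes were low together in sh#7. Each line gives the 250 bases before the start site, 5′ to 3′ on the gene's own strand, from RefSeq on GRCh38.p14, and capitals mark CTGGGA or its reverse complement TCCCAG, the core of the interleukin 6 response element. FGA lies at chr4:154590743-154590992 on the minus strand, FGB at chr4:154562730-154562979 on the plus strand, and FGG at chr4:154612657-154612906 on the minus strand. RefSeq promoters matched 3 of the 4 genes, and FGL1 was not matched.
FGA: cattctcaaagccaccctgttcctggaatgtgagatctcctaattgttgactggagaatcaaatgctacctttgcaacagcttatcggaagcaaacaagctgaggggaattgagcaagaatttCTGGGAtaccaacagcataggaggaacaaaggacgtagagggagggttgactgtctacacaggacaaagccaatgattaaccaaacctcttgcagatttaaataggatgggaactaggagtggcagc
FGB: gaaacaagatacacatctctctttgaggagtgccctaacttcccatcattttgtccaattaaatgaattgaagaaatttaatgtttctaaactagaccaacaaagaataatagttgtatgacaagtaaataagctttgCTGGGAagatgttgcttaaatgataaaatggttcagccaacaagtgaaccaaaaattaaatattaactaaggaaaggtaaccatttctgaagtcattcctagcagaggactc
FGG: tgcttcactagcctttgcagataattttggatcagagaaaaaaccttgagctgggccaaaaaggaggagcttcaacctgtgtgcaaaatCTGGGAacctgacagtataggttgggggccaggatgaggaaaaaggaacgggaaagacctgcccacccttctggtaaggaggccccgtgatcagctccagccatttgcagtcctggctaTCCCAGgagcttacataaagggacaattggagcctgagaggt
The motif CTGGGA was found, on either strand, in all 3 of these windows, with its first base 127 bases before the start site in FGA, 112 in FGB, and 161 and 42 in FGG. It is a common string, present in 28.8% of 27305 RefSeq promoter windows of this length. TTGCNNAA, a C/EBP site, was found in 2 of the 3 windows (FGA and FGB) and in 9.13% of all windows. The motifs did not overlap each other in these windows. These matches describe letters and are not evidence of binding.

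The knockdown was checked first. Levels are taken as FPKM, the read fragments of a gene divided by transcript length and by the mapped total; the table states no unit, and FPKM was inferred from its values, its header and the tools listed. FTO was at 9.02 FPKM with the control shRNA, 5.29 FPKM with sh#2 and 2.55 FPKM with sh#7. The lower of the knockdown lines was thus sh#7, the one the design text gives as more efficient. Low values placed the depth at about 42.0, 43.2 and 41.8 M (mega) fragments in the control, sh#2 and sh#7. Intervals below are exact 95% intervals, taken on estimated fragments, for counting error only, and no value below has a replicate check. For the chain shares the count was the FPKM share multiplied by the estimated fragments of all chains, so those intervals are approximate. Differences between libraries are in log2(FPKM + 1), and the 11069 genes whose mean reached 1 FPKM were compared. Counts past 2-fold are on that scale, which shrinks the ratio of low genes. Across these genes the median difference from the control was 0.16 for sh#7 and 0.10 for sh#2, so a gene at 0 on that scale lay slightly below the middle.

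FGG was the most abundant of the 4 genes in the control and in sh#2. It was at 419.6 FPKM with the control shRNA, 454 FPKM with sh#2 and 10.6 FPKM with sh#7. It ranked 201 among all genes of the control library and 6055 in sh#7. Its sh#7 level was 2.53% of the control (interval 2.35 to 2.72), a log2 difference of -5.18. In sh#2 the level was 108% of the control (107 to 109.98).

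FGA was the lowest of the chains relative to its control level. It was at 260 FPKM with the control shRNA, 219 FPKM with sh#2 and 3.96 FPKM with sh#7. The sh#7 level was 1.52% of the control (1.37 to 1.69), a log2 difference of -5.72 and the second lowest of all compared genes. In sh#2 it was 84.4% of the control (82.9 to 86.0), while FGB and FGG were above theirs; with median-of-ratios scaling FGG in sh#2 was level with the control, at -0.0041.

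FGB was the least abundant chain gene in every library. It was at 28.6 FPKM with the control shRNA, 34.6 FPKM with sh#2 and 0.662 FPKM with sh#7, the last from about 55 estimated fragments. Its sh#7 level was 2.31% of the control (1.74 to 3.02), 43.2-fold lower. The log2 difference was -4.16, which understates that ratio because the sh#7 level lies below the added 1 FPKM. In sh#2 the level was 121% of the control (115 to 128).

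FGL1 was the gene that did not follow the others. It was at 138 FPKM with the control shRNA, 119 FPKM with sh#2 and 113 FPKM with sh#7. These were 86.4% (83.3 to 89.5) and 82.1% (79.1 to 85.1) of the control, with log2 differences of -0.21 and -0.28. From sh#2 to sh#7 its difference was -0.07, where FGA, FGB and FGG differed by -5.47, -4.42 and -5.29. In sh#7 FGL1 was the most abundant of the 4 genes, with 10.6 FPKM for FGG next.

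**Figure D1:**
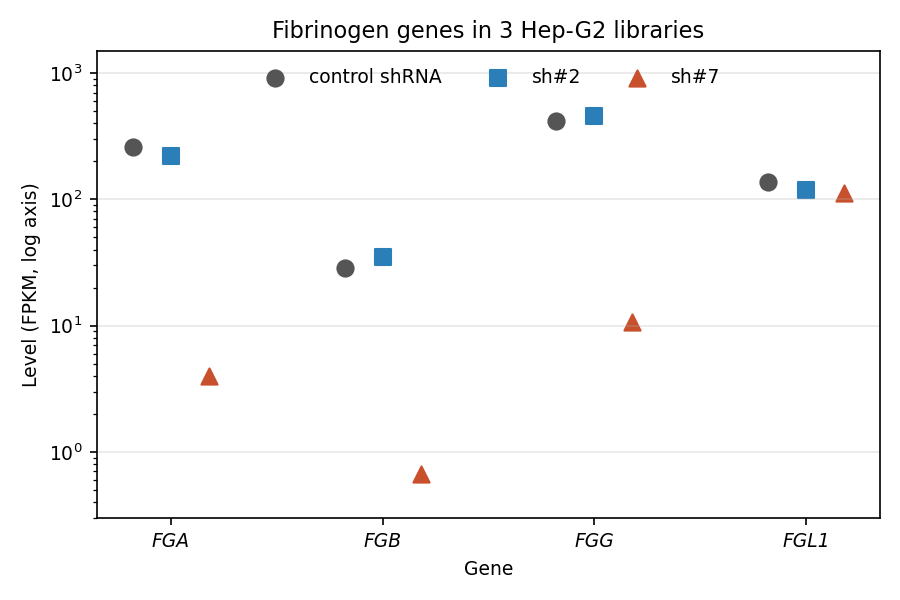
Level of FGA, FGB, FGG and FGL1 in FPKM (log axis), with 1 point for each library: control shRNA (circles), sh#2 (squares) and sh#7 (triangles). The chain genes lie at 10.6 FPKM or below in sh#7 and at 28.6 FPKM or above in the other libraries, while FGL1 lies between 113 and 138 FPKM in all 3.

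In sh#7, 3 of the 4 genes were at least 2-fold below the control, where 2.48% of all compared genes were; the genes were picked for this, so nothing is read from the share. In sh#2, 0 of the 4 were at least 2-fold lower, where 0.723% of all genes were, and 0 were at least 2-fold higher, where 0.506% were. Between the knockdown lines FGA, FGB and FGG were at least 2-fold lower in sh#7, where 1.52% of all genes were, and 0 of the 4 were higher, where 1.45% were. In bulk RNA, fewer cells that express a gene and less RNA of it in each cell cannot be told apart.

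The 3 chain genes together held almost the same level in the control and in sh#2. Their summed level was 708 FPKM with the control shRNA, 708 FPKM with sh#2 and 15.2 FPKM with sh#7. The sum in sh#2 was 100.03% of the control, and the sum in sh#7 was 46.4-fold lower. Their part of all FPKM was 0.125% with the control shRNA, 0.127% with sh#2 and 0.00287% with sh#7.

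Within a library the proportions of the chains do not depend on how libraries were scaled. FGB made up 4.04% of the summed chain FPKM in the control (3.88 to 4.21), 4.89% in sh#2 (4.71 to 5.07) and 4.34% in sh#7 (3.25 to 5.68). Its share in sh#7 lay within counting error of both other libraries, although the sum differed 46.4-fold. FGA made up 36.7% (36.3 to 37.1), 31.0% (30.6 to 31.4) and 26.0% (23.5 to 28.6) in the same order. FGG made up 59.3%, 64.1% and 69.7%. The level of FGG was thus 1.62 times that of FGA with the control shRNA, 2.07 times with sh#2 and 2.69 times with sh#7, with counting intervals of the shares that did not overlap. FGG was 14.7 times as abundant as FGB with the control shRNA, 13.1 times with sh#2 and 16.0 times with sh#7.

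**Figure D2:**
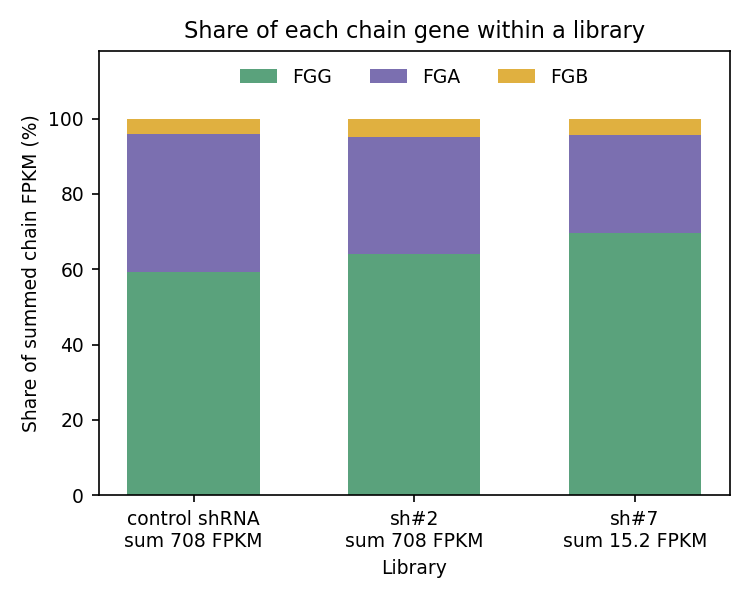
Share of FGG, FGA and FGB in their summed FPKM (percent, stacked bars) in each library, with the sum under each bar. FGB keeps 4.04% to 4.89% in all 3 libraries, and FGA goes from 36.7% in the control to 26.0% in sh#7.

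The fibrinogen cluster lies on chromosome 4 between PLRG1, which encodes a spliceosome protein, and LRAT, which encodes a retinol esterifying enzyme. PLRG1, the gene next to FGB, was at 20.5 FPKM with the control shRNA, 26.5 FPKM with sh#2 and 18.5 FPKM with sh#7. Its log2 difference was -0.14 in sh#7, where FGB differed by -4.16, and 0.36 in sh#2. Of the 10 nearest protein-coding genes, 5 on each side in RefSeq order, PLRG1 was the 1 that reached the minimum level. The other neighbours did not exceed 0.054 FPKM in any library, and LRAT, RBM46, NPY2R, MAP9 and GUCY1A3 were listed at 0 in all 3. On the LRAT side, whether the low sh#7 level reaches beyond FGG could therefore not be measured. MND1, listed as a neighbour but beyond these 10, was at 23.9 FPKM with the control shRNA, 24.5 FPKM with sh#2 and 15.2 FPKM with sh#7.

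FGL1 lies on chromosome 8. Of its 10 nearest protein-coding genes in RefSeq, 8 were in the table and 7 were compared, and 0 of these were at least 2-fold below the control in sh#7 in log2(FPKM + 1), where 2.48% of all genes were. In FPKM itself PDGFRL, 1 of the 7, was at 41.0% of the control (31.9 to 52.3), from 2.90 to 1.19 FPKM. MTUS1, the nearest on 1 side, was at 17.7 FPKM with the control shRNA, 17.4 FPKM with sh#2 and 24.2 FPKM with sh#7. MTUS1 and NAT1 lay above the control in sh#7, and the rest of the 7 lay below it. SLC7A2, 1 of these, was at 52.5% of the control in sh#7 and 51.8% in sh#2. MTUS1, SLC7A2 and NAT1 are named after their values were seen. ASAH1, also 1 of the 7, was at 58.3, 66.7 and 55.0 FPKM. CNOT7, listed but beyond the 10, was at 45.5, 45.7 and 44.2 FPKM.

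**Figure D3:**
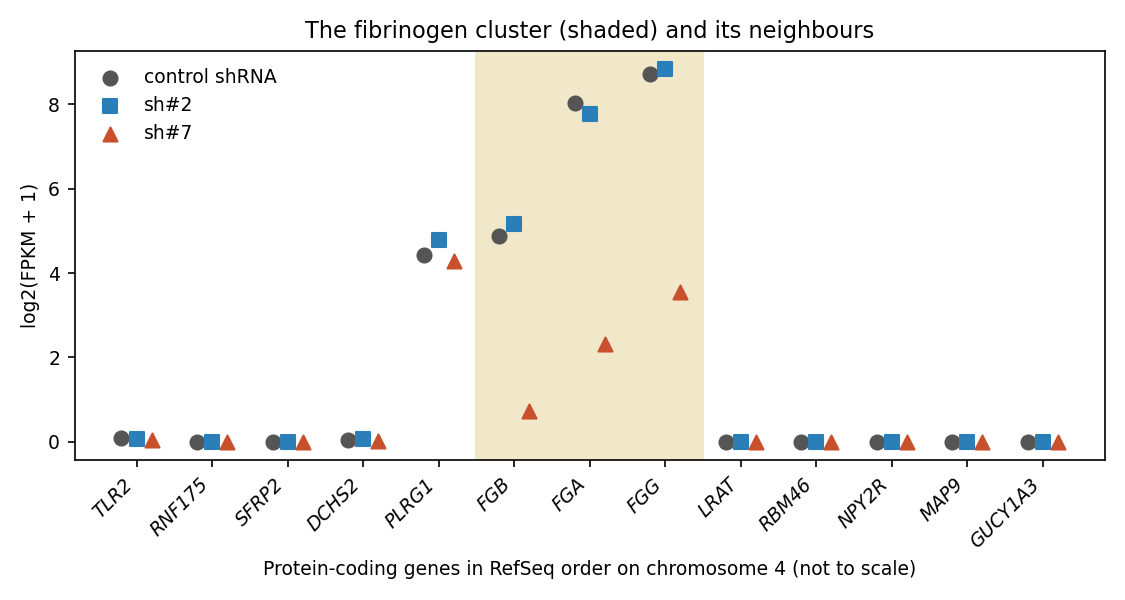
Level of the 3 fibrinogen chain genes (shaded) and the 5 nearest protein-coding genes on each side, in log2(FPKM + 1), in RefSeq order on chromosome 4 and not to scale, for the 3 libraries. The chain genes are low in sh#7 only, PLRG1 beside them lies between 18.5 and 26.5 FPKM in all 3, and the other neighbours lie near 0.

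Other genes of the fibrinogen-related domain family were barely expressed. Of 20 such genes in the table, 2 were compared, and the other 18 stayed at or below 0.62 FPKM in every library. ANGPTL2, an angiopoietin-like secreted protein, was at 2.67 FPKM with the control shRNA, 2.92 FPKM with sh#2 and 4.05 FPKM with sh#7. ANGPTL4, an inhibitor of lipoprotein lipase, was at 3.54, 2.72 and 2.2 FPKM. Neither passed 2-fold in any comparison. Among the 18 below the minimum level, ANGPTL6 was at 0.607, 0.622 and 0.082 FPKM, from about 45, 48 and 6 estimated fragments. Its sh#7 level was 13.5% of the control (4.76 to 31.6) and its sh#2 level 102% (66.8 to 157), the order of the chains. FIBCD1, also below the minimum, lay above its control in sh#7, at 201% (91.8 to 467). FGL1 and the chain genes were thus the only genes of this family above 5 FPKM among those listed.

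The genes whose pattern was most like the chains were sought among the 8164 genes whose mean reached 5 FPKM. Likeness was the distance between a gene's log2 differences in sh#2 and sh#7 and the median of the 3 chains, a measure over 3 libraries that share 1 control. TNNI2, a troponin subunit of fast muscle, came first with a distance of 0.50, where FGA lay at 0.65 and FGB at 1.03. With a pseudocount of 0.1, an alternative added after the data were seen, FGB came before TNNI2, at 0.17 against 0.43, and 8 of the 10 genes were shared. It was at 189 FPKM with the control shRNA, 227 FPKM with sh#2 and 6.27 FPKM with sh#7. HEY1, a transcriptional repressor downstream of Notch, followed with 39.5, 52.1 and 1.90 FPKM. CCL20, a chemokine, was at 570.4, 405 and 46.4 FPKM. HOXD1, a homeobox factor, was at 88.5, 81.7 and 7.29 FPKM. HEPACAM, an adhesion protein, was at 37.8, 30.9 and 2.64 FPKM.

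The other 5 of the 10 genes were also at least 2-fold lower in sh#2, where the chains and the 5 named above stayed inside 2-fold. They were FABP1, TTR, AFP, BPIFB2 and LYZ, with log2 differences in sh#2 between -1.17 and -1.96. This split does not follow the order of likeness, since FABP1 lay nearer to the chain median than CCL20, HOXD1 and HEPACAM. FABP1, which carries fatty acids inside hepatocytes, was at 6167 FPKM with the control shRNA, 2415 FPKM with sh#2 and 208 FPKM with sh#7. AFP, the fetal plasma protein, was at 961, 294 and 15.7 FPKM. FGL1 stood at a distance of 4.90 from the chain median, with 1148 genes nearer.

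**Figure D4:**
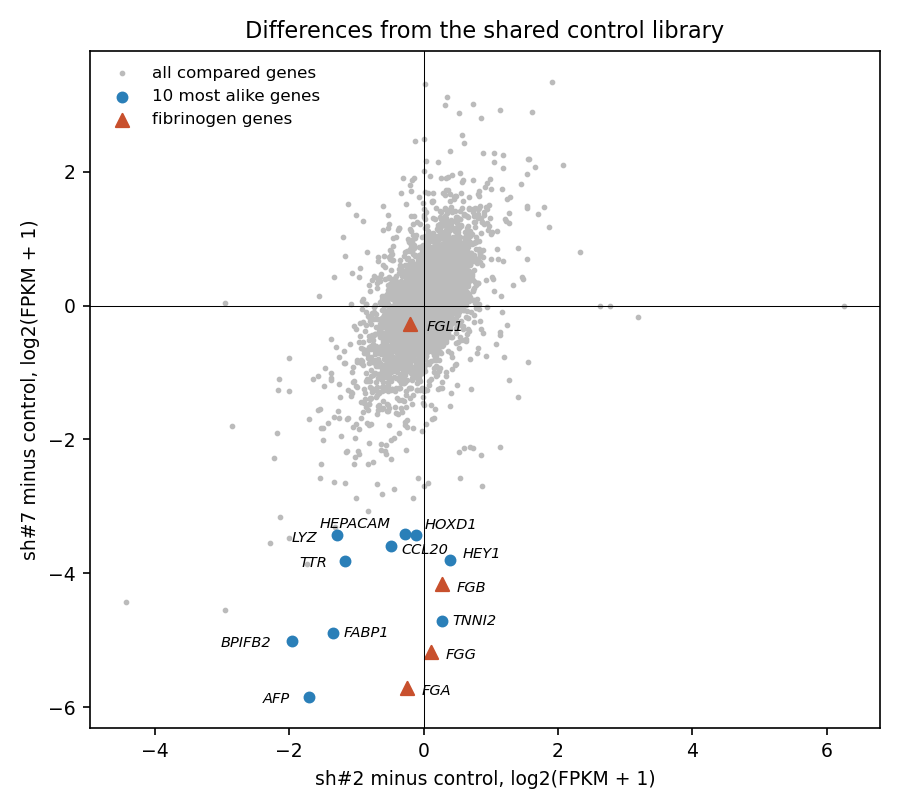
Difference from the control in sh#2 (horizontal axis) and in sh#7 (vertical axis), in log2(FPKM + 1), for all 11069 compared genes (grey), the 10 genes most like the chains (blue) and the 4 fibrinogen genes (triangles). FGA, FGB and FGG lie near 0 in sh#2 and between -4.16 and -5.72 in sh#7, and FGL1 lies within the bulk of genes; both axes share the control library.

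The receptor chain that carries the interleukin 6 signal was present in all 3 libraries. Interleukin 6 itself was listed at 0. Of 12 compared genes of the receptor and STAT3 pathway, 1 was at least 2-fold lower in sh#7 and 1 was higher, and 0 passed 2-fold in sh#2; over all genes 2.48% were lower and 2.35% higher in sh#7. The list median was 0.42 in sh#7, against 0.16 over all genes, and 0.04 in sh#2, against 0.10. OSMR, the oncostatin M receptor, was at 25.2 FPKM with the control shRNA, 22.1 FPKM with sh#2 and 10.2 FPKM with sh#7. JAK1, a receptor kinase, was at 12.2, 15.9 and 28.0 FPKM, a log2 difference of 1.13 in sh#7 that became 0.97 under median-of-ratios scaling. STAT3 and the feedback inhibitor SOCS3 are named after their values were seen. STAT3 was at 41.2, 49.2 and 54.9 FPKM. SOCS3 was at 2.03, 1.69 and 0.53 FPKM. In sh#7 it was at 26.1% of the control (19.3 to 34.8), 3.83-fold lower, although its log2(FPKM + 1) difference of -0.98 lay inside 2-fold. IL6R and the receptor chain IL6ST, also named after their values were seen, went the other way. IL6R was at 10.0, 10.3 and 20.5 FPKM, in sh#7 204% of the control (185 to 225), with a log2 difference of 0.96. IL6ST was at 16.2, 19.2 and 28.3 FPKM, in sh#7 174% of the control (163 to 187).

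Factors listed here as acting at fibrinogen promoters went both ways. Of 16 compared, 2 were at least 2-fold lower in sh#7 and 2 were higher, where 2.48% and 2.35% of all genes were, and the median was -0.04, beside 0.16 over all genes. CEBPD, a C/EBP factor of the acute phase, was at 49.9 FPKM with the control shRNA, 40.8 FPKM with sh#2 and 13.9 FPKM with sh#7. CREB3L3, a membrane-bound liver factor of the acute phase, was at 8.94, 7.30 and 3.10 FPKM. CEBPA, a C/EBP factor of the resting hepatocyte, was at 35.5, 71.9 and 121 FPKM, and NR3C1, the glucocorticoid receptor, at 4.13, 5.99 and 14.5 FPKM. CEBPA and CEBPD therefore lay on opposite sides of the control in sh#7, with log2 differences of 1.74 and -1.78. ONECUT1 differed past 2-fold only between the knockdown lines, at 5.03 FPKM with sh#2 and 1.79 FPKM with sh#7. In sh#2, 0 of the 16 passed 2-fold, but CEBPA lay at 0.998 and passed at 1.02 with a pseudocount of 0.1, its level being 203% of the control. HNF4A, a liver nuclear receptor named after its values were seen, was at 93.1 FPKM with the control shRNA and 81.3 FPKM with sh#7.

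Several acute phase genes that respond to interleukin 6 were low in sh#7, none of them by as much as a chain gene. Of 10 compared, 5 were at least 2-fold lower in sh#7 and 1 was higher, where 2.48% and 2.35% of all genes were, and the median was -1.09, beside 0.16 over all genes. HP, the haemoglobin scavenger haptoglobin, was at 101 FPKM with the control shRNA, 114 FPKM with sh#2 and 34.2 FPKM with sh#7. SERPINA3, a proteinase inhibitor, was at 554, 455 and 164 FPKM. SERPING1, the C1 inhibitor, was at 6.02, 5.89 and 0.92 FPKM. These 3 showed the order of the chains, near the control in sh#2 and low in sh#7.

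CP and ITIH3 lay below the control in both knockdown lines, past 2-fold in both for CP and in sh#7 alone for ITIH3. CP, ceruloplasmin, was at 175, 43.1 and 14.9 FPKM, and ITIH3, a hyaluronan-binding inhibitor chain, at 50.8, 27.4 and 18.7 FPKM. HAMP, the iron hormone hepcidin, was at 102, 171 and 257 FPKM, opposite to the chains. HPX, haemopexin, was at 5.72, 13.8 and 3.98 FPKM. Among 5 compared genes listed under the interleukin 1 type, 1 was at least 2-fold lower in sh#7, where 2.48% of all genes were. It was SAA4, the constitutive serum amyloid A, at 111, 163 and 17.8 FPKM. In sh#7 the other 4 lay inside 2-fold, and the inducible SAA1 and SAA2 did not exceed 0.40 FPKM in any library. The list median there was -0.10.

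No other listed gene of the clotting pathway differed as much as a chain gene. Of 17 compared genes of thrombin generation and its control, 4 were at least 2-fold lower in sh#7 and 1 was higher, where 2.48% and 2.35% of all genes were, with a median of -0.48. In sh#2, 0 passed 2-fold, where 0.723% of all genes were lower and 0.506% higher; F10, coagulation factor X, came close at -0.99, with an FPKM of 49.6% of the control. F2, the thrombin precursor, was named after its values were seen and was at 445 FPKM with the control shRNA, 341 FPKM with sh#2 and 259 FPKM with sh#7. SERPINC1, the thrombin inhibitor antithrombin, was at 43.4, 44.7 and 12.01 FPKM. TFPI, which inhibits the tissue factor pathway, was at 434, 296 and 101 FPKM. F11, coagulation factor XI, was at 12.8, 12.5 and 5.88 FPKM, and PROZ, protein Z, at 6.03, 3.07 and 1.98 FPKM.

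KNG1, kininogen, was at 1.96, 3.18 and 5.06 FPKM, a log2 difference of 1.03 in sh#7 that became 0.90 with median-of-ratios and 0.94 with upper-quartile scaling. PROCR, the protein C receptor, differed past 2-fold only between the knockdown lines, at 2.61 FPKM with sh#2 and 6.76 FPKM with sh#7. For fibrin crosslinking, TGM2, a tissue transglutaminase, was the only compared gene of 3, at 10.1, 8.87 and 10.4 FPKM, and F13A1 was listed at 0.

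Among genes that dissolve the clot or hold that process back, 6 were compared, of which 1 was at least 2-fold lower in sh#7 and 1 was higher, where 2.48% and 2.35% of all genes were. ANXA2, a cell surface plasminogen receptor, was at 110 FPKM with the control shRNA, 67.7 FPKM with sh#2 and 44.7 FPKM with sh#7. PLAU, urokinase, was at 0.57, 1.82 and 2.33 FPKM, a log2 difference of 1.08 in sh#7 that became 0.995 under median-of-ratios scaling.

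The machinery that folds and exports fibrinogen stayed within 2-fold. None of 14 compared genes passed 2-fold in any comparison, where 4.83% of all compared genes did so in sh#7 against control, 1.23% in sh#2 against control and 2.97% between the knockdown lines. CALR, a lectin chaperone, was at 1870 FPKM with the control shRNA, 1731 FPKM with sh#2 and 1687 FPKM with sh#7, and P4HB, a disulfide isomerase, at 1456, 1114 and 1027 FPKM. Among receptors of fibrinogen and FGL1, 4 of 10 were compared and 1 passed 2-fold in sh#7, where 4.83% of all genes did: ICAM1, at 70.6, 56.6 and 34.1 FPKM. In FPKM itself ITGB2, also compared, was at 48.1% of the control in sh#7 (42.3 to 54.8). Of those below the minimum level, ITGB3 was at 0.018, 0.223 and 0.656 FPKM and ITGA5 at 0.142, 0.202 and 0.622 FPKM. ITGA2B, also below it, went the other way, at 0.492, 0.255 and 0.269 FPKM. LAG3, the receptor of FGL1, did not exceed 0.04 FPKM.

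**Figure D5:**
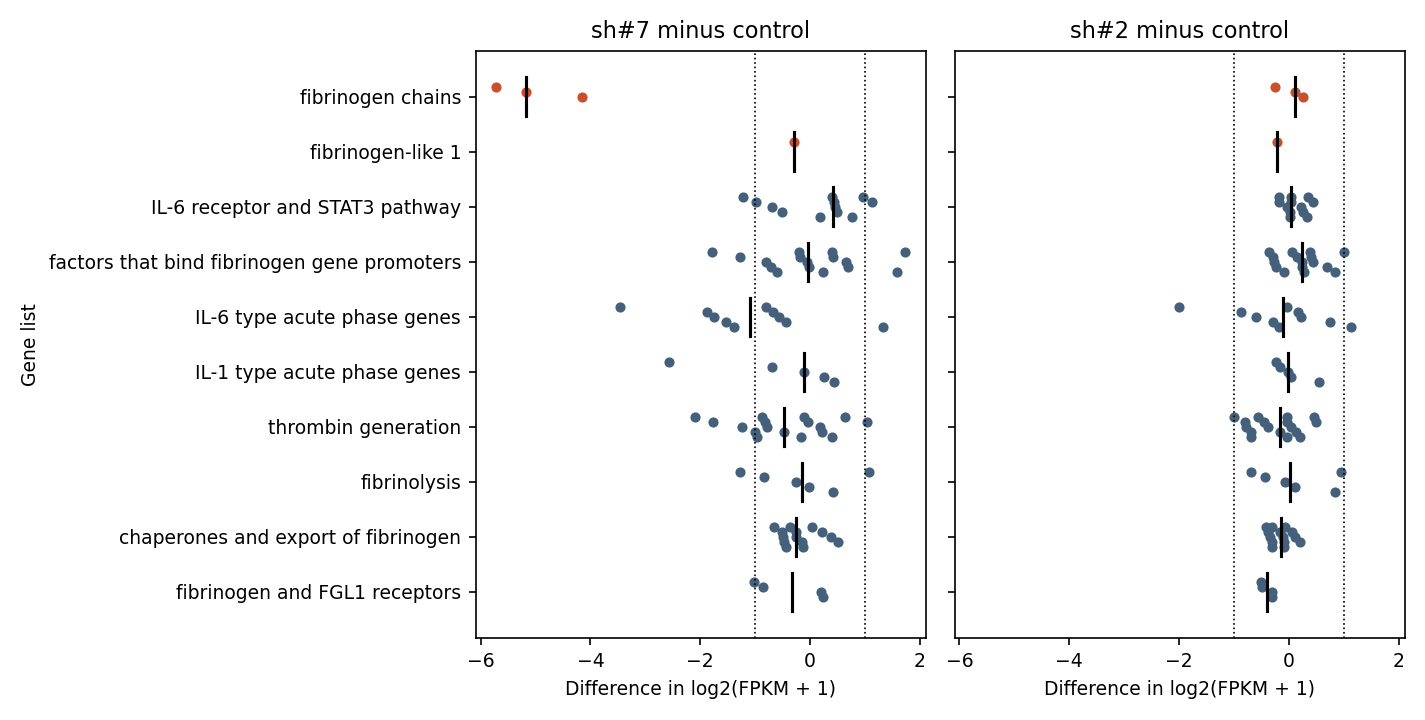
Difference from the control in log2(FPKM + 1) for the compared members of 10 lists, with 1 point a gene, black bars at list medians and dotted lines at 2-fold, in sh#7 (left) and sh#2 (right). The 3 chain genes lie at -4.16 or below in sh#7, below every other point shown, and inside 2-fold in sh#2. The hepatocyte markers are not plotted, and among them AFP lies lower, at -5.85 in sh#7.

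Cell identity was checked beside the chain genes. All 10 hepatocyte markers were expressed in every library, and 6 were at least 2-fold lower in sh#7, with 3 of them in sh#2, where 2.48% and 0.723% of all genes were. Their summed level was 26412 FPKM with the control shRNA, 19729 FPKM with sh#2 and 11447 FPKM with sh#7. ALB, albumin, was at 5468 FPKM with the control shRNA, 5501 FPKM with sh#2 and 1947 FPKM with sh#7, and APOA1, the main protein of high-density lipoprotein, at 2616, 2629 and 1081 FPKM; both had the order of the chains with a far smaller difference. APOA2, TTR, AFP and AHSG were the others. The part of this marker difference in the fibrinogen values was not tested.

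Markers of other cells that carry or meet fibrinogen were below 1 FPKM in every library, apart from CD68 and PDGFRB. The 6 platelet and megakaryocyte markers summed to 0.32 to 0.54 FPKM, with PF4, PPBP and GP9 listed at 0. The 9 blood and endothelial markers summed to 40.4 FPKM with the control shRNA, 32.1 FPKM with sh#2 and 24.1 FPKM with sh#7, nearly all of it CD68, and PTPRC was listed at 0. The 6 fibroblast and stellate markers summed to 3.77, 1.79 and 1.19 FPKM, nearly all of it PDGFRB in the control. PDGFRB was at 3.76, 1.69 and 0.616 FPKM, while COL1A1 went the other way, at 0.0149, 0.102 and 0.578 FPKM, and COL1A2, COL3A1, DCN and THY1 were listed at 0.

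The mRNAs of the 4 genes were also searched for GGACT, a short form of the sequence in which N6-methyladenosine is found. The longest coding transcript in GENCODE 29 held 6 matches in FGA, 2 in FGB, 3 in FGG and 2 in FGL1. This was 1.63, 1.01, 1.70 and 1.02 matches per kb, against a median of 0.936 and quartiles of 0.573 and 1.40 over the 9781 compared genes with such a transcript. FGA and FGG lay above the upper quartile, and FGB and FGL1 lay between the median and the upper quartile. A link of this density to the sh#7 differences was not tested. The searched transcript of FGA had 3678 nt, where its estimated fragments used one of 2248 nt, and that of FGL1 had 1967 against 1093 nt. Their densities may therefore not describe the transcripts present in these cells. A match is a string of letters, and methylation was not measured.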

How the data were processed

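RNA was measured in 3 Hep-G2 libraries, 1 per group. The authors deposited values for 21572 genes with no stated unit; the deposited values were taken as FPKM, inferred from the values, the header and the tools listed. The submitters' processing notes list Cufflinks 2.2.1, STAR 2.4.0j and HTSeq with build hg19, and do not say which tool did which step. The 4 genes, the gene lists and the rule for named genes were chosen with earlier results of these data known. That rule took the 4 genes and FTO, list members past 2-fold in any comparison or else the 2 most abundant, expressed neighbours of the cluster, and the 10 genes most like the chains. In all, 2 list genes are not reported here and are not in the list counts.

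Differences were computed as log2(FPKM + 1) over genes whose mean reached 1 FPKM, with 2-fold as a description and no test, since 1 library per group gives none. Depth was estimated from single-transcript genes longer than 800 nt at the level of 1 fragment. Estimated fragments used the shortest CCDS transcript in GENCODE 29, a newer annotation than the authors' build, so intervals are approximate. Calculations used Python 3.11.15, NumPy 2.4.6, pandas 2.3.3 and SciPy 1.17.1 and were tested on simulated data. Alternatives were a pseudocount of 0.1, other scalings, other minimum levels, other folds, and shares of fragments.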

Additional observations from a re-analysis of the deposited data

Results flagged for a closer look

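In 6 of the genes named above, the knockdown lines lay on opposite sides of the control beyond counting error, under each scaling and pseudocount run, with at least 1 of the lines past 2-fold. Genes with smaller opposite differences, such as ONECUT1, PROCR and PLRG1, are not among them. The difference between the lines was not tested, since each line is 1 library. On the log2(FPKM + 1) scale FGB lay at -4.16 with sh#7 and 0.27 with sh#2 relative to the control. TNNI2 differed by -4.71 and 0.27, and HEY1 by -3.80 and 0.39. FGB was picked for its loss in sh#7 only, and TNNI2 and HEY1 for their likeness to the chains in these same differences. Nothing further is read from the pattern of FGB, TNNI2 and HEY1. HP differed by -1.54 and 0.17, and SAA4 by -2.58 and 0.55. HPX differed by -0.43 in sh#7 and 1.14 in sh#2, and was the 1 gene of these with the larger difference in sh#2.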

How the results depend on the processing

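No paired analysis was possible because there is only 1 library per group, and no library could be left out for the same reason. The chain median in sh#7 against control, -5.18, was -5.29 with a pseudocount of 0.1, -5.34 with median-of-ratios and -5.30 with upper-quartile scaling, and in sh#7 against sh#2, -5.29, it was -5.51 with a pseudocount of 0.1. In sh#2 against control, 0.11, it was -0.0041 and 0.023 under these scalings, so its sign is not settled. FGL1 was at -0.46 and -0.41 in sh#7, -0.33 and -0.30 in sh#2, and -0.13 under median-of-ratios scaling between the knockdown lines. Those scalings lower the median of all genes by 0.15 and 0.11 in sh#7. Counts of all genes lower and higher were 684 and 1064 in sh#7, 301 and 295 in sh#2, and 504 and 569 between the lines at 1.5-fold, and 60 and 26, 12 and 6, and 36 and 18 at 4-fold. With a pseudocount of 0.1, 394 were higher in sh#7, 138 lower and 106 higher in sh#2, and 252 higher between the lines. At a minimum mean of 5 FPKM these were 146, 49, 24 and 82. Genes lower in sh#7, 275 as reported, were 364 with a pseudocount of 0.1, 371 with median-of-ratios and 338 with upper-quartile scaling. The 2.48% given beside the lists therefore depends on the setting. Higher genes were 48.6% of those past 2-fold in sh#7 and 34.2% under median-of-ratios scaling, and 41.2% and 30.7% in sh#2. As shares of fragments, FGA, FGB and FGG made up 43.7%, 4.23% and 52.1% in the control, 37.5%, 5.20% and 57.3% in sh#2, and FGA and FGG 32.0% and 63.3% in sh#7. Of 477 single-gene values under alternatives, 203 moved outside the counting interval of the reported value. Among the 477, 0 past 2-fold changed sign, 4 no longer passed 2-fold and 8 newly did. Of the 4 genes, FGB in sh#7 rests on the fewest estimated fragments, about 55.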
